A study of Mus musculus with 20 samples.

Results

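The expression of 7 antimicrobial genes of the Paneth cell type, Defa17, Defa20, Defa24, Defa32, Mmp7, Lyz1 and Ang4, was examined in the mouse colon. These are 7 of the 32991 genes measured. They were chosen by their FPKM in these mice, as Paneth cell genes that were high in the colon of Model mice and low or listed at 0 in Control mice, so the difference between Model and Control mice is described here without a test. The value of a gene in a mouse was the sum of the FPKM (fragments per kilobase of transcript, scaled to the depth of the library) of its annotated transcripts, and each of the 7 has 1 such transcript.

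Paneth cells are secretory cells at the base of the small intestinal crypt, where they sit among the stem cells and release granules of antimicrobial protein into the crypt lumen. The healthy colon of the mouse has few or none of them, and cells with Paneth features can appear in the inflamed or neoplastic colon, where this is called Paneth cell metaplasia. Alpha-defensins, encoded by the Defa genes, are made as inactive precursors, which in the mouse are cut to the active peptide by the protease matrilysin, encoded by Mmp7. Lyz1 encodes the lysozyme of Paneth cells, which cuts bacterial cell walls, and Ang4 a ribonuclease of the angiogenin family that kills bacteria and is made by Paneth and goblet cells.

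Colon RNA of 20 male C57BL/6 mice, 1 library per mouse, was sequenced after removal of ribosomal RNA, with 5 mice in each of 4 groups, and each mouse is called here by the number in its label. Control mice received distilled water by gavage for 91 days, and PZH mice received Pien Tze Huang, a traditional Chinese medicine formula, at 250 mg/kg/d over the same 91 days. Model mice received AOM (azoxymethane, a colon carcinogen) at 12.5 mg/kg and, 7 days later, drinking water with 2% DSS (dextran sodium sulfate, which injures the colonic epithelium) for 5 days followed by 2 weeks of plain water, over 4 cycles, with distilled water by gavage. Model + PZH mice received the same AOM and DSS together with PZH at 250 mg/kg/d. The age of the mice and whether the sampled tissue held tumor are not given in the sources used here. The depth was 15.3 to 19.4 M fragments per mouse. At this depth 1 fragment was worth 0.121 to 0.165 FPKM for the 4 Defa genes and 0.0408 to 0.0922 for the other 3 genes.

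The genes lie apart in the genome except for the Defa cluster (coordinates on GRCm38). Defa20 (chr8:21509258-21510237), Defa32 (chr8:21529032-21530012), Defa17 (chr8:21655780-21656735) and Defa24 (chr8:21734494-21735471) are on the plus strand and have 2 exons each. Mmp7 (chr9:7692090-7699585, plus strand) has 6 exons, Lyz1 (chr10:117287797-117292868, minus strand) has 4 and Ang4 (chr14:51763878-51773590, minus strand) has 2.

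How far the reads can separate these near copies follows from their sequences. The last 105 coding bases of the members are shown to make this visible, and capitals mark the bases at which Defa17 and Defa24 differ from each other, while Defa20 and Defa32 share 1 line because their coding sequences are the same.
Defa17: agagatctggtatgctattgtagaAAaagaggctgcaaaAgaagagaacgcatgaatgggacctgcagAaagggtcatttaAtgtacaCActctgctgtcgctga
Defa24: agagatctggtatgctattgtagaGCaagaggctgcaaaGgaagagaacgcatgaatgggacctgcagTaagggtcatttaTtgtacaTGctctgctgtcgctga
Defa20 and Defa32: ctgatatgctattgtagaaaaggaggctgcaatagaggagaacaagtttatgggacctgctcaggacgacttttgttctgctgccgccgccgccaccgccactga
Defa17 and Defa24 differed at 12 of 282 coding bases (95.7% identity), 7 of them within the stretch shown. Defa20 and Defa32 differed at 0 of 288 coding bases. When each annotated transcript was read in windows of 100 bases, 99.7% of the windows of Defa20 and of Defa32 also occurred in another gene (Defa2, Defa33 or each other), as did 90.6% of those of Defa17 (in Defa3 or Defa30). For Defa24, Mmp7 and Ang4 the share was 0%, and for Lyz1 it was 2.06%, in its neighbor Lyz2. The values of Defa17, Defa20 and Defa32 are therefore uncertain as values of single genes, because StringTie could have divided fragments between copies, and Defa24 is the alpha-defensin whose value rests on sequence of its own.

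The region upstream of Defa20 is shown because it holds a short motif in duplicate. It is the 250 bases before the RefSeq start of the gene (GRCm38.p6, chr8:21509008-21509257, plus strand), with the motif in capitals.
Defa20 upstream: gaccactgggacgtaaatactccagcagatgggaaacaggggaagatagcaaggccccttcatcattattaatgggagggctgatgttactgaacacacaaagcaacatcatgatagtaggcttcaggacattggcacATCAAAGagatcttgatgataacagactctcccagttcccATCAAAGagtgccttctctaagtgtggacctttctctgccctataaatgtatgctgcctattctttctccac
The motif searched was CTTTGAT on either strand (ATCAAAG when read from the other), the letters recognized by the TCF/LEF factors of the Wnt pathway. It stood at 112 and 72 bases before the start of Defa20, and at 110 and 70 bases before that of Defa32. Of 32851 RefSeq promoter entries, 1053 (3.21%) held it in their 250 upstream bases, as did 13 of 16 Defa entries. The letters before Defa20 and Defa32 are the same apart from a small shift. Defa2, Defa21 and Defa22 also held the motif at 112 and 72 bases. The 13 entries are therefore not separate cases, and the share cannot be set against 3.21%. No match was present before the starts of Lyz1 and Ang4 and before the first start of Mmp7, while a later RefSeq start of Mmp7 had 1 match 247 bases before it, inside the annotated gene. These matches are a description of letters and not of binding, and their part in the levels of the genes was not tested. Defa17 and Defa24 were not matched to an entry.

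Without AOM/DSS, the alpha-defensins and Mmp7 were at or below about 1 fragment in every mouse. Defa17 and Mmp7 were listed at 0 FPKM in all 5 Control and all 5 PZH mice. Defa24 was listed at 0 in 9 of these 10 mice and at 0.156 FPKM in PZH mouse 53. Defa20 and Defa32 were listed at 0 in 8 of the 10, at 0.129 FPKM in Control mouse 37 and at 0.0715 in PZH mouse 8, the same value for both genes. A listed 0 can also be a failed estimate in these files, since Epcam, which epithelial cells express, was listed at 0 in 13 of 20 mice and at 233 to 865 FPKM in the other 7. Fragments given to assembled transcripts are missing from the genes, and 12.1 to 14.8% of the FPKM of a mouse lay in such transcripts. No fold is given against a group at 0 for this reason, and a difference of log2(FPKM + 1) against such a group depends on the pseudocount and is no bound.

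Lyz1 was low but present without AOM/DSS. It was 21.5, 12.8, 1.66, 2.33 and 10.2 FPKM in Control mice 17, 37, 41, 48 and 50 and 10.3, 2.06, 6.51, 2.59 and 4.21 FPKM in PZH mice 8, 14, 27, 46 and 53. The ranges of the Control and PZH mice overlapped.

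In Model mice, all 7 genes were well above the Control mice. Defa24, the most abundant of the 4 alpha-defensins, was 622, 239, 391, 886 and 1218 FPKM in Model mice 23, 30, 33, 44 and 52. In the same order, Mmp7 was 342, 191, 234, 598 and 498 FPKM. Lyz1 was 1059, 732, 681, 1509.9 and 2128 FPKM in these mice. Mouse 52 or mouse 44 was the highest for each of these 3 genes, and mouse 30 or mouse 33 the lowest.

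The other alpha-defensins followed the same order of mice as Defa24, from 52 down to 44, 23, 33 and 30. Defa20 ranged from 90.8 to 687 FPKM (median 301), Defa32 from 86.9 to 639 (median 257) and Defa17 from 97.6 to 547 (median 284). Ang4 was 155, 90.1, 161, 171 and 228 FPKM in mice 23, 30, 33, 44 and 52, the narrowest relative range of the 7. No Model mouse was below the highest Control mouse in any of the 7 genes, beside 13% of the 15812 genes tested in which all Model mice were higher than all Control mice, and adjusted P under 0.05 with a higher level held for 16.4% of these genes. The difference in mean log2(FPKM + 1) was 4.94 for Ang4 and 7.14 for Lyz1. Since this contrast chose the genes, nothing is read from these values and counts.

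In Model + PZH mice the 6 genes other than Ang4 spread over a far wider range than in Model mice. Defa24 was 10.4 FPKM in mouse 2, 3.01 in mouse 13, 149 in mouse 15, 1069.6 in mouse 35 and 17.6 in mouse 36. The 4 mice other than 35 were thus below the lowest Model mouse (239 FPKM), and mouse 35 was within the Model range.

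**Figure D1:**
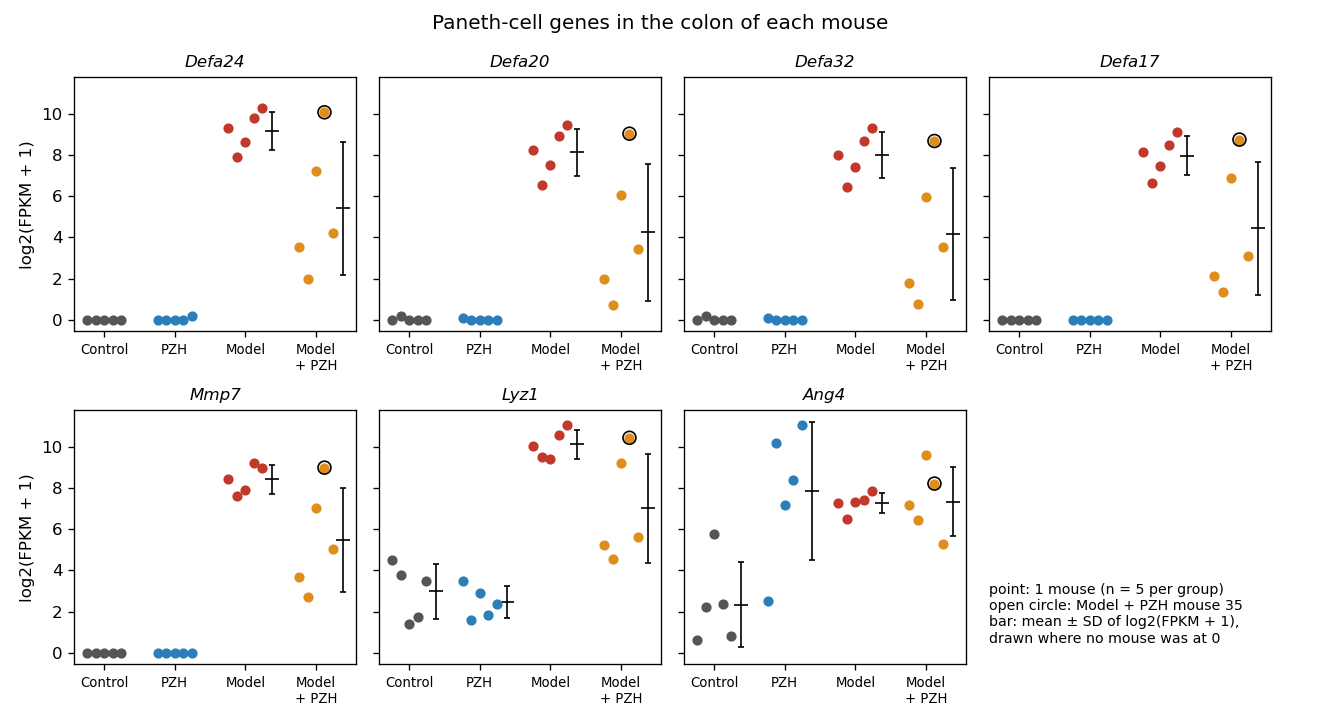
Level of each gene in each mouse as log2(FPKM + 1), by group, with 1 point per mouse and, where no mouse of the group was listed at 0, the mean ± SD beside the points (n = 5). For the 4 Defa genes, Mmp7 and Lyz1 the open circle, Model + PZH mouse 35, lies among the Model mice, while Ang4 differs by being high in 4 of 5 PZH mice.

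Defa20 was 2.92, 0.641, 65.0, 520.4 and 9.81 FPKM in Model + PZH mice 2, 13, 15, 35 and 36. Defa32 was 2.51, 0.709, 61.4, 407 and 10.4 FPKM in these mice, close to Defa20 in each, as their shared sequence allows. Defa17 was 3.37, 1.52, 118, 427 and 7.53 FPKM. Mouse 15 was within the Model range for Defa17 and below it for the other 5 genes.

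Mmp7, the processing protease, was 11.7 FPKM in mouse 2, 5.64 in mouse 13, 127 in mouse 15, 504 in mouse 35 and 31.6 in mouse 36. Lyz1 was 37.1, 22.1, 599, 1376 and 47.5 FPKM in the same mice. All 6 genes ranked the 5 mice alike, as 35, 15, 36, 2 and 13 from high to low. From the lowest to the highest mouse the factor was 355 for Defa24, 812 for Defa20, 574 for Defa32, 281 for Defa17, 89.4 for Mmp7 and 62.2 for Lyz1, against 3.12 to 7.56 among Model mice.

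Over the 10 AOM/DSS mice the levels of the 6 genes varied together. Pearson's r of log2(FPKM + 1) between pairs of them was 0.981 to 0.999 (n = 10 mice), and 0.951 to 0.999 without the 2 mice farthest from the median. With Ang4 the r of the 6 genes was 0.446 to 0.551. These values describe 2 groups of different level together, and the Defa genes share sequence. In bulk tissue, fewer cells of a type and less RNA per cell cannot be told apart.

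Model + PZH mice were compared with PZH mice to see the genes with and without AOM/DSS under PZH. The genes were chosen with results of all 4 groups known, so this comparison is not independent of the choice. Log2(FPKM + 1) was compared with limma, and a gene was called at a Benjamini-Hochberg adjusted P under 0.05 over the 15636 genes tested. Lyz1 and Ang4 were the genes that could be tested here without regard to the filter, since both were above 0.5 FPKM in all 10 mice. Lyz1 had a difference of 4.56 (SE 1.06, 95% interval 2.22 to 6.90, adjusted P = 0.0525 with limma) and was not called, beside 1.74% of all genes tested called higher and 0.678% called lower. Each Model + PZH mouse was above each PZH mouse for Lyz1, as for 5% of all genes tested. For Ang4 the difference was -0.51 (SE 1.44, 95% interval -3.70 to 2.67, adjusted P = 0.872), and the groups overlapped.

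Mmp7 and the 4 alpha-defensins were at or near 0 in PZH mice and passed the filter only because all 5 Model + PZH mice reached 0.5 FPKM. They therefore had to differ, and their fitted values are given as a description that supports nothing. Mmp7 was called, with a difference of 5.48 at a pseudocount of 1 and 8.73 at a pseudocount of 0.1 (adjusted P = 0.0274 and 0.00846 with limma). For Defa24 these differences were 5.36 and 8.34, for Defa17 4.44 and 7.53, for Defa20 4.22 and 7.07 and for Defa32 4.13 and 6.98. The adjusted P of these 4 genes was 0.0525 to 0.105 at a pseudocount of 1 and 0.0197 to 0.0380 at 0.1. The size of the difference thus depended on the pseudocount and not on the mice alone.

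The number of the 7 genes called depended on the mice and settings. It was 0 without Model + PZH mouse 15 or without PZH mouse 14, 27, 46 or 53, and up to 3 without Model + PZH mouse 13. It was 6 with a pseudocount of 0.1 (beside 1.89% of genes tested called higher) or with all 20 mice in one model (beside 4.41%), and 5 of these 6 were the genes at or near 0 in PZH mice. The adjusted P of Lyz1 was 0.0388 to 0.123 when 1 mouse was left out, and it was under 0.05 without Model + PZH mouse 13.

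Whether PZH changed the genes in AOM/DSS mice was asked by comparing Model + PZH with Model mice. The Model mice took part in choosing the genes as high ones, so that a lower value in Model + PZH is favored by the choice. None of the 7 genes was called (limma, adjusted P under 0.05), beside 0.00629% of 15888 genes tested. The difference was -3.77 for Defa24 (95% interval -6.65 to -0.88, adjusted P = 0.358 with limma), -2.93 for Mmp7 (SE 1.02, adjusted P = 0.358) and -3.11 for Lyz1 (SE 1.06, adjusted P = 0.356). It was -3.52 for Defa17, -3.88 for Defa20 and -3.83 for Defa32, with adjusted P of 0.369, 0.358 and 0.358. By the criteria of the study, a change of more than 2-fold with P under 0.05 before adjustment, these 6 genes passed as lower, beside 2.01% of all genes tested.

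Model + PZH mouse 35 decided this result. Without it, the 6 genes were called lower (adjusted P = 0.0184 to 0.0340 with limma), with differences of -4.93 for Defa24 (SE 0.92), -3.81 for Mmp7 (SE 0.76) and -3.97 for Lyz1 (SE 0.85). This was beside 4.34% of all genes called lower without this mouse, 690 genes against 0 with it. Leaving it out was done by its mouse number as for each other mouse, and no label sets it apart. For Ang4 the difference was within its error in both fits, 0.06 (SE 0.67, 95% interval -1.43 to 1.54) with all mice and -0.16 (SE 0.72) without mouse 35.

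**Figure D2:**
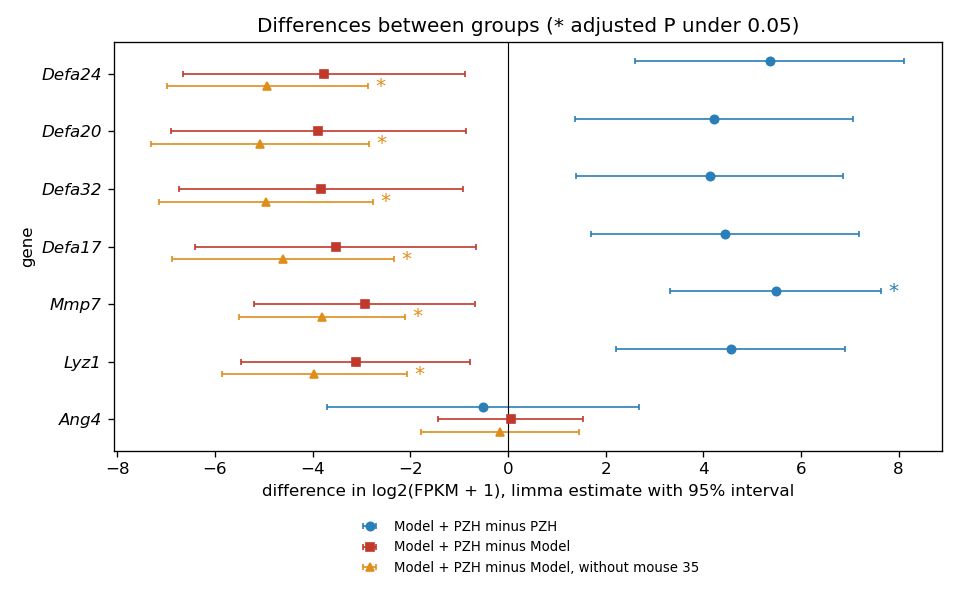
Differences in log2(FPKM + 1) between groups for each gene, as limma estimates with 95% intervals, for Model + PZH minus PZH (circles), Model + PZH minus Model (squares) and the latter without mouse 35 (triangles). Against PZH the 4 Defa genes and Mmp7 depend on the pseudocount of 1, since they were at or near 0 there. Asterisks mark adjusted P under 0.05, which Mmp7 reached against PZH and 6 genes reached against Model once mouse 35 was left out.

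Genes of other cell types also differed between mouse 35 and the other Model + PZH mice, and their part in the result was not tested. The summed level of 10 intestinal stem cell genes was 375 FPKM in mouse 35 and 160 to 258 in the other 4 Model + PZH mice, against 252 to 373 in Model mice. Mouse 15 (258) was within the Model range for these genes. The sum of 16 genes of colonic identity was 1184 FPKM in mouse 35 and 1774 to 2817 in the other 4, against 924 to 1762 in Model mice. The sum of 12 goblet cell genes was 2688 FPKM in mouse 35 and 6620 to 8145 in the other 4, against 4046 to 7366 in Model mice, so that mouse 35 was below the Model range for these. Of 13 neutrophil genes the sum was 368 FPKM in mouse 35 and 152 to 327 in the other 4, against 244 to 675 in Model mice, and mouse 36 (327) was within the Model range too. For 10 macrophage genes the sum was 779 FPKM in mouse 35, above the 507 to 677 of Model mice, and 382 to 589 in the other 4. Epithelial genes did not set mouse 35 apart, with a sum over 10 genes of 4292 FPKM against 3665 to 6591 in the other 4. Lgr5, the marker of crypt base stem cells, was 21.6 FPKM in mouse 35 and 0.726 to 7.77 in the other 4, against 11.1 to 22.4 in Model mice.

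The wider alpha-defensin family varied with the 4 members. Besides these 4, 25 Defa genes had a row, 18 of them protein coding and 7 pseudogenes, and all 25 were listed at 0 in all 10 mice without AOM/DSS. In Model mice 16 reached a mean of at least 1 FPKM, 15 of them coding. The sum over all Defa genes was 3227, 998, 1861, 4683 and 6727 FPKM in Model mice 23, 30, 33, 44 and 52. It was 39.2, 12.3, 798, 4734 and 106 FPKM in Model + PZH mice 2, 13, 15, 35 and 36. The 4 members made up 42.9 to 51.5% of this sum in each of the 10 AOM/DSS mice, so that their share stayed within a narrow range while the sum varied widely.

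The largest of the other Defa genes were Defa2 (98.0 to 466 FPKM in Model mice) and Defa3 (82.4 to 453), followed by Defa30 (18.2 to 488) and Defa22 (42.0 to 398). Among the weakest were Defa27, at most 0.268 FPKM, and the pseudogenes Defa-ps3 and Defa-ps5, at most 0.105 and 0.159. In Model + PZH against PZH mice, 4 of the 25 could be tested, and 0 were called. These 4 were at 0 in all PZH mice, so their direction was fixed and nothing is read from it. Against Model mice, 15 could be tested, all 15 were lower at an unadjusted P under 0.05 (8.21% of all genes tested) and 0 were called by limma. They varied with members that were chosen as high in Model mice, and Defa2, Defa3, Defa30 and Defa33 share sequence with members. The 15 are therefore not separate results.

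**Figure D3:**
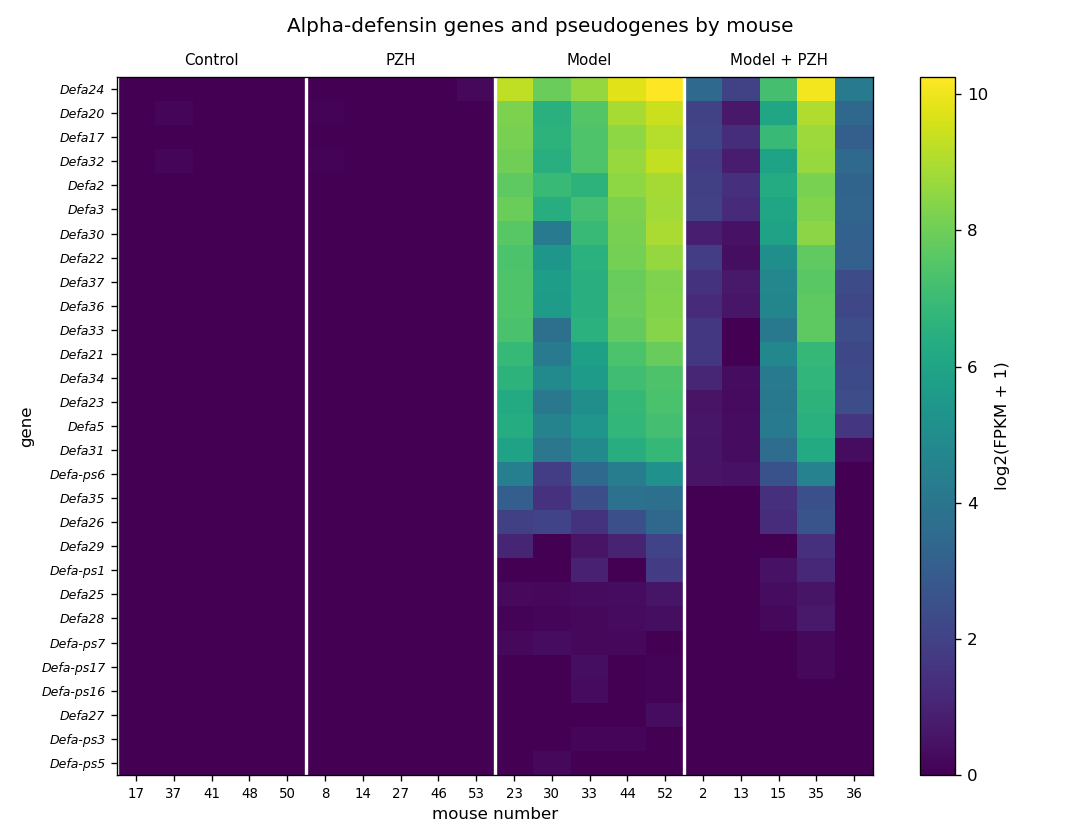
Level of the 29 Defa genes and pseudogenes, as log2(FPKM + 1) in color, in each of the 20 mice, ordered by mean level with Defa24 on top. The 10 Control and PZH mice are at or near 0 throughout, and in the Model + PZH group mouse 35 resembles the Model mice while mouse 13 has the lowest levels.

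Some of the other listed Paneth cell products were abundant in Control colon too, so the list does not mark Paneth cells alone. Among these were Mptx1 (229 to 2047 FPKM in Control mice), Guca2a (562 to 1369), Spink4 (371 to 869) and Reg4 (127 to 515). Others were low there, such as Itln1 (at most 0.863 FPKM). Of 26 further products with a row, 18 could be tested in Model + PZH against PZH mice. Of these, 1 was called higher and 1 lower, beside 1.74% and 0.678% of all genes tested. The median difference of the 18 was 0.20 against 0.04 over all genes tested. Pla2g2a, a secreted phospholipase that GENCODE annotates as a polymorphic pseudogene, rose from 13.3 ± 6.86 FPKM in PZH to 76.5 ± 55.9 in Model + PZH mice (SD, n = 5, adjusted P = 0.0387 with limma). Mptx1, a mucosal pentraxin, fell from 4314 ± 3721 to 354 ± 93.8 FPKM (SD, n = 5, adjusted P = 0.0361 with limma). In Model against Control mice 13 of 22 tested were called higher and 2 lower, beside 16.4% and 7.23% of all genes tested. In Model + PZH against Model mice 0 of 23 were called by limma, beside 0.00629% of all genes. By limma, 1 was higher and 7 were lower at an unadjusted P under 0.05, beside 8.21% of all genes tested that were lower.

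Among these products, Itln1 and Reg3b ordered the Model + PZH mice as the 6 genes other than Ang4 did. Others, such as Guca2a, Spink4 and Reg4, did not. Itln1, a lectin that binds microbial sugars, was 5.50, 3.61, 79.2, 273 and 8.29 FPKM in mice 2, 13, 15, 35 and 36, after 109 to 368 in Model mice and at most 12.7 without AOM/DSS. Mptx2, a pentraxin of Paneth cells, was 61.2 FPKM in mouse 35 and 0.145 to 8.26 in the other 4, with only 0.461 in mouse 15. Reg3g, a lectin that acts on Gram-positive bacteria, was 198 FPKM in mouse 35 and at most 17.02 in the other 4, but in Model mice it split into 0.604 and 0.769 FPKM in mice 33 and 30 and 123 to 176 in the other 3. Guca2a, by contrast, was lowest in mouse 35 (146 FPKM) and highest in mouse 13 (766 FPKM). Spink4 was highest in mouse 36 (1813 FPKM), and Reg4 was 446 FPKM in mouse 35 and 444 in mouse 13. The neighbor of Lyz1, the macrophage lysozyme Lyz2, had a narrower range, with 149 to 323 FPKM in Control and 231 to 387 in Model mice. Lyz2 was 247, 321, 342, 449 and 232 FPKM in Model + PZH mice 2, 13, 15, 35 and 36, and was thus also highest in mouse 35.

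Genes that govern secretory and Paneth cell fate were called between Model and Control mice. In Model + PZH against PZH mice 0 of 20 were called (by limma, 3 were higher and 1 lower at an unadjusted P under 0.05, beside 13% and 7.89% of all genes tested). In Model against Control mice 8 were called higher and 2 lower of 20, beside 16.4% and 7.23% of all genes tested. Sox9, which Paneth cells need to form, was 15.5 to 25.4 FPKM in Control and 22.2 to 31.2 in Model mice. Antimicrobial genes of the colon outside the Paneth cell were called higher for 3 and lower for 1 of 21 tested in Model + PZH against PZH mice, beside 1.74% and 0.678% of all genes. Nos2, the inducible nitric oxide synthase, rose from 2.02 ± 0.821 to 28.0 ± 12.7 FPKM (SD, n = 5, adjusted P = 0.00521 with limma), Ido1 and Duoxa2 also rose, and Wfdc2 fell. Nos2 in Model mice was 27.4 ± 7.51 FPKM (SD, n = 5), near the Model + PZH level.

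Genes of immune cells and of the mature colon were also called between Model + PZH and PZH mice, beside 1.74% of all genes called higher and 0.678% lower, and their part in the levels of the 7 genes was not tested. Of the macrophage genes 2 of 10 tested were called higher, Cd68 with 8.02 ± 1.45 FPKM in PZH and 16.6 ± 1.51 in Model + PZH mice (SD, n = 5, adjusted P = 0.0126 with limma) and the complement gene C1qb. By limma, 4 of these 10 were higher and 1 lower at an unadjusted P under 0.05, beside 13% and 7.89% of all genes tested. Of the neutrophil genes 1 of 4 tested was called higher, Retnlg, with at most 1.45 FPKM in PZH and at least 2.22 in Model + PZH mice (adjusted P = 0.0355 with limma). Of the genes of colonic identity 1 of 15 was called lower, the sugar phosphate transporter Slc37a2, with 109 ± 34.7 FPKM in PZH and 15.1 ± 7.79 in Model + PZH mice (SD, n = 5, adjusted P = 0.00733 with limma). No stem cell gene of 9 and no goblet cell gene of 12 was called (by limma, 2 and 0 were higher at an unadjusted P under 0.05).

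The genes most like the 7 were found by the mean of their Pearson's r with the 7, over log2(FPKM + 1). Over the 10 AOM/DSS mice Itln1 came first among 15888 genes (mean r 0.925, mean Spearman's rho 0.936), followed by Defa3, Defa2, Defa5, Defa21, Defa36, Defa37, Defa34, Tnfrsf9 and Defa22, the last with a mean r of 0.91. Over all 20 mice the list held Defa3, Defa2, Defa22, Defa37, Defa36, Defa34 and Itln1 and, outside the Defa cluster, Wif1, Notum and Lama1. The r over all 20 mice takes in the difference between groups by which the 7 were chosen. It therefore favors genes that are high in Model mice and low in Control mice. Wif1, a secreted inhibitor of Wnt proteins, averaged 0.673 FPKM in Control, 0.811 in PZH, 104 in Model and 37.2 in Model + PZH mice. Notum, an enzyme that inactivates Wnt proteins, averaged 0.0073 FPKM in Control, 0 in PZH, 20.04 in Model and 9.19 in Model + PZH mice. For all 20 entries the lowest r was with Ang4.

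Ang4 differed from the other 6 in that it was high in PZH mice without AOM/DSS. It was 0.517, 3.61, 52.8, 4.11 and 0.74 FPKM in Control mice 17, 37, 41, 48 and 50. It was 4.63, 1159, 142, 335 and 2095 FPKM in PZH mice 8, 14, 27, 46 and 53. PZH mouse 8 was within the Control range and the other 4 were above it, so the groups overlapped.

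PZH against Control was therefore tested for Ang4 and Lyz1, the 2 of the 7 genes that passed the filter. Ang4 had a difference of 5.51 (SE 1.52, 95% interval 2.15 to 8.87, unadjusted P = 0.00419, adjusted P = 0.437 with limma), the largest rise among 15506 genes tested, but it was not called. Control mice 17 and 50, the lowest for Ang4, stood apart from the other Control mice in squamous epithelial genes, and without both the difference was 4.42 (SE 1.81, adjusted P = 0.6999 with limma), an alternative chosen after seeing the data. Lyz1 had a difference of -0.53 (SE 0.60, adjusted P = 0.815), and of 0.14 (SE 0.60) without these mice. In this comparison 0.00645% of genes were called. The Control mice took part in choosing the genes as low ones, which favors a rise.

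Among PZH mice, those with much Ang4 also had much of other secreted proteins, picked here once the values had been seen. Mptx1 was 660, 6751, 1827, 2772 and 9561 FPKM in PZH mice 8, 14, 27, 46 and 53, the same order as Ang4. Retnlb, a goblet cell protein that acts on bacteria, was 5.07, 171, 102, 293 and 538 FPKM in these mice. Control mouse 41, the highest Control mouse for Ang4, was also the highest for Mptx1 (2047 FPKM) and Retnlb (6.44 FPKM). In Model + PZH mice Ang4 was 142, 86.6, 773, 295 and 37.4 FPKM in mice 2, 13, 15, 35 and 36. Mouse 15 also had the most Retnlb (174 FPKM), whereas Mptx1 was highest in mouse 13 (507 FPKM). Mouse 35, second for Ang4, was lowest for Mptx1 (257 FPKM). Among Model mice the order differed, since mouse 52 was highest for Ang4 (228 FPKM) and lowest for Retnlb (4.51 FPKM). Mptx1 was highest there in mouse 33 (308 FPKM).

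**Figure D4:**
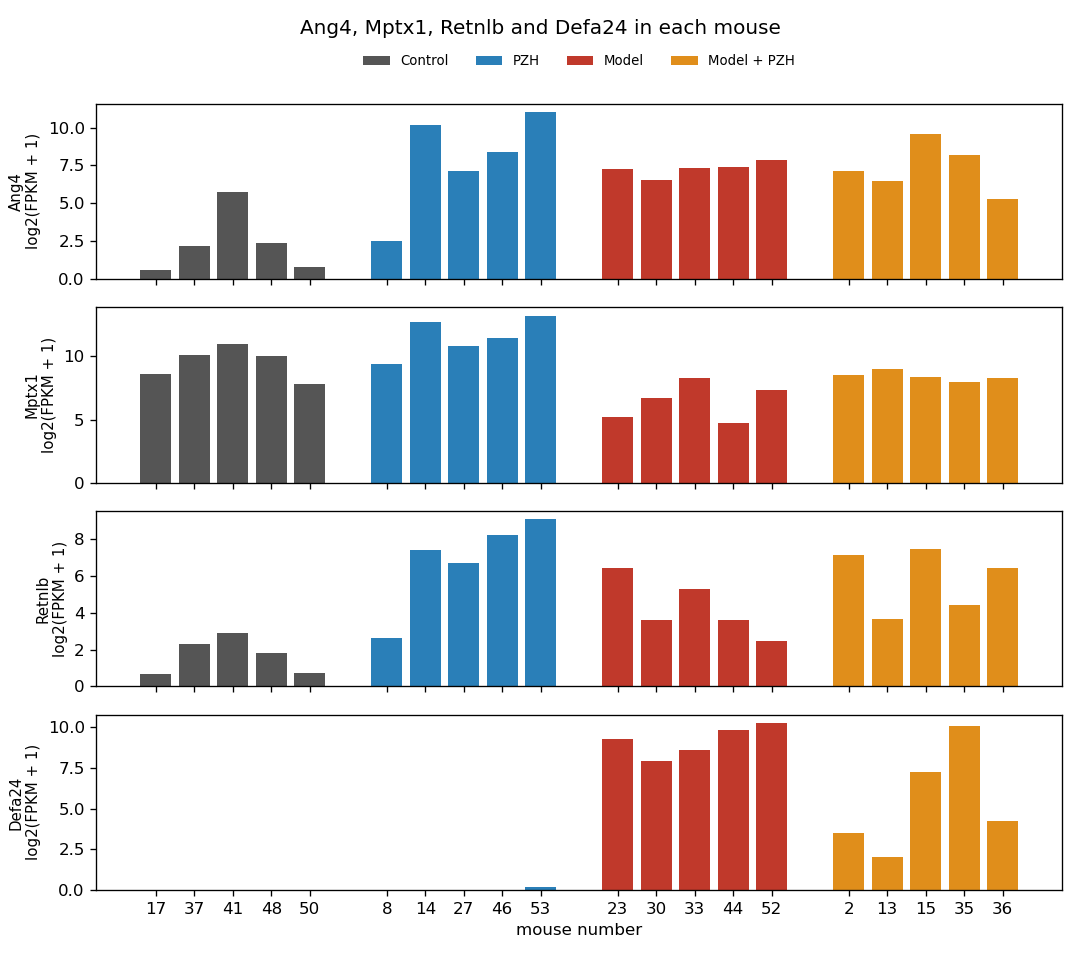
Level of Ang4, Mptx1, Retnlb and, for contrast, Defa24 in each mouse as log2(FPKM + 1), 1 bar per mouse in the color of its group. Ang4, Mptx1 and Retnlb are highest in PZH mouse 53, and Defa24 is near 0 in all Control and PZH mice.

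The label of colon tissue and the presence of other tissue were checked with marker genes. Colon markers were present in all 20 mice, with Car1 at 65.2 to 1145 FPKM and Hoxb13 at 58.7 to 202. Of genes of the small intestinal absorptive cell, Sis, Lct and Apoa4 were near 0, at most 0.169, 0.185 and 0.135 FPKM in any mouse. Some others were above 0 in all 20 mice. Fabp2 was at 3.32 to 88.0 FPKM, Fabp6 at 0.326 to 61.6, Slc10a2 at 0.323 to 4.52 and Alpi at 0.0266 to 1.58. The summed level of 21 small intestinal genes was 206 to 277 FPKM in Control and 78.8 to 133 in Model mice, and 186 to 266 in PZH and 87.2 to 172 in Model + PZH mice. Acinar enzymes of the pancreas were also near 0 (Prss2, Ctrb1 and Pnlip at most 0.386, 0.147 and 0.0821 FPKM). The other pancreatic list genes Zg16, Sycn and Cela1, of which Zg16 is also a goblet cell product, were at 775 to 4283, 92.3 to 2156 and 54.5 to 259 FPKM in all 20 mice, and the sum of the list was 1128 to 6109 FPKM. The sum of 10 squamous epithelial genes was 523 and 382 FPKM in Control mice 17 and 50 and 0.966 to 2.18 in the other 3, against 0.818 to 2.19 in PZH and 13.7 to 38.5 in Model mice. In Model + PZH mice it was 68.2 in mouse 35 and 3.40 to 10.04 in the other 4. The sum of the 10 stomach genes with a row was 0.365 to 1.09 FPKM in Control, 0.168 to 0.901 in PZH, 1.55 to 11.2 in Model mice, 11.4 in Model + PZH mouse 35 and 0.1997 to 1.89 in the other 4. The part of these genes in the results was not tested. The labels name the abdominal aorta in the extraction text, and the summed level of 10 vessel and muscle genes was 2278 to 5210 FPKM in Control, 1055 to 2428 in PZH, 1024 to 1755 in Model and 913 to 2323 in Model + PZH mice. Between Model + PZH and PZH mice 0 of the 10 were called by limma, beside 1.74% of all genes called higher and 0.678% lower. By limma, 1 was higher and 1 lower at an unadjusted P under 0.05, beside 13% and 7.89% of all genes tested.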

How the data were processed

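RNA-seq of colon tissue from 20 mice, 1 library per mouse and 5 per group, was examined. The authors deposited FPKM per transcript, and per the study's methods they came from FastQC (v0.11.5), NGSQC (v.2.3.3), HISAT2 (v2.1.0) alignment to mm10 and StringTie (v1.3.3b). The files held no counts. FPKM were summed per gene over 96032 of 96182 Ensembl transcripts found in GENCODE M21. The 22252 assembled transcripts entered no gene. Depth came from the step size of FPKM × length in 15074 genes with 1 transcript. Whole steps (tolerance 0.02 fragments) held 48.4 to 53.5% of the low values, so the absolute depth is uncertain and no count test was run.

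Log2(FPKM + 1) of the 10 mice compared was fitted with limma 3.58.1 in R 4.3.3 with an intensity trend, for genes that reached 0.5 FPKM in 5 or more of them. Differences and SE are on this log2 scale, which understates changes of low genes. P values were adjusted over all genes tested. The method was checked on simulated data with known changes. Nothing states that mice of a group came from separate cages or cohorts, so P values measure the spread between these mice.

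The 7 genes and all gene lists were chosen with earlier results of these data known. Genes named are the 7, other Defa genes with a mean of at least 1 FPKM in a group, up to 4 genes called in each direction per list between Model + PZH and PZH mice, and the 10 genes with the highest mean r with the 7 over the 10 AOM/DSS mice and over all 20. Others were chosen after their values were seen. Promoter sequences came from RefSeq (GRCm38.p6), and 5 of the 7 genes were matched. Coding sequences came from GENCODE M21. Alternatives were median-of-ratios scaling, no filter on low values, a pseudocount of 0.1, all 20 mice in one model, the largest transcript per gene, array quality weights, the study's criteria and leaving out each mouse in turn, with the genes tested kept. Leaving out Control mice 17 and 50 together was added after seeing the data.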

Additional observations from a re-analysis of the deposited data

Results flagged for a closer look

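Of 23 group values tested for a single mouse far from the other 4 (Dixon's test, critical value 0.71), 11 had one, where chance flags about 1 in 20 groups. These 11 cannot be set against that rate, since the genes co-vary and 5 of the 11 are groups with 4 zeros and 1 value of about 1 fragment or less, where the ratio is 1 by construction. In Model + PZH, mouse 35 was far above the other 4 for Defa17 (427 FPKM), Defa20 (520.4), Defa24 (1069.6), Defa32 (407) and Mmp7 (504). Control mouse 37 (0.129 FPKM) and PZH mouse 8 (0.0715 FPKM) were the only mice of their groups above 0 for Defa20 and for Defa32, values near 1 fragment, as was PZH mouse 53 for Defa24 (0.156 FPKM). Control mouse 41 was far above the other Control mice for Ang4 (52.8 FPKM).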

How the results depend on the processing

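No paired analysis was possible because the mouse numbers differ between groups. In Model + PZH against PZH mice, 378 genes and 1 of the 7 were called. This became 90 genes and 0 of the 7 without the filter, 1002 and 6 with all 20 mice in one model, and 155 genes with the largest transcript per gene. Of the 7 genes, 6 were called with a pseudocount of 0.1, 6 by the study's criteria and 3 with array quality weights. Leaving out 1 mouse gave 52 to 400 genes and 0 to 3 of the 7. In Model + PZH against Model mice, 1 gene and 0 of the 7 were called. The number of genes became 0 without the filter, 89 with all 20 mice, 3 with the largest transcript per gene, 382 by the study's criteria (6 of the 7) and 2 with array quality weights, and 1 to 807 (0 to 6 of the 7) without 1 mouse, the highest without Model + PZH mouse 35. In PZH against Control mice, 1 gene was called, against 0 with all 20 mice, 2 with the largest transcript per gene, 107 by the study's criteria (1 of the 7, Ang4) and 1 to 2 without 1 mouse. In Model against Control mice, 3739 genes were called, against 1219 by the study's criteria. The number was 2789 to 3588 without 1 mouse and 2783 without both Control mice 17 and 50. It held 7 of the 7 throughout, but this contrast chose the 7, so nothing is read from that. The sign of the Ang4 difference, which was never called, turned in Model + PZH against Model mice with array quality weights (-0.25) and without Model + PZH mouse 15 (-0.51), Model + PZH mouse 35 (-0.16) or Model mouse 30 (-0.13), and was 0.58 without Model + PZH mouse 36. It turned in Model + PZH against PZH mice without Model + PZH mouse 36 (0.0039) or PZH mouse 14 (0.068) or 53 (0.28), and was -1.85 without PZH mouse 8. Without both Control mice 17 and 50, chosen after seeing the data, the Lyz1 difference of PZH against Control mice turned to 0.14. No sign turned for the other 6 genes in Model + PZH against Model or PZH mice, and the cause was not tested. Values near 1 fragment and listed zeros limit what can be said of the genes without AOM/DSS.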
